A study of Mus musculus with 2 samples.

Results

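The cells described here are AE9a leukemia cells that were rich in transcripts of the replication-coupled histone genes. They were selected on measured expression. Each kept cell received 3 scores, each the logarithm of the summed unique molecular identifiers (UMIs, 1 per captured transcript) of a gene set per 10000 UMIs of the cell, standardised over all kept cells. Score E used 7 early S phase genes (Ung, Dtl, Mcm4, Mcm6, Cdc6, Cdt1 and Hells), score H used Hist1h1b, Hist1h1a, Hist1h2ap, Hist1h2ae, Rrm2 and Fbxo5, and score M used 8 mitotic genes (Cenpf, Aspm, Prc1, Ube2c, Plk1, Hmmr, Cdc20 and Ccnb1). A cell was a histone-high cell where H was the highest of the 3 scores and at least 0. There were 3024 such cells among 13918 kept cells, out of 15114 deposited barcodes, and kept cells had at least 500 genes and 2 to 10% mitochondrial UMIs.

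The study depleted Usp18, a negative regulator of type I interferon signaling, in established leukemia. Leukemia was driven by AML1-ETO9a (AE9a), a truncated fusion protein delivered with GFP by a retrovirus to fetal liver cells, and in both groups the leukemia cells were Usp18+/f with the Cre of the UBCER-Cre line, a tamoxifen-activated recombinase expressed from the broadly active ubiquitin C promoter. Recipients were young adult C57BL/6 mice given sub-lethal irradiation, which leaves host blood cells. Once they were sick they received oil or tamoxifen dissolved in oil, and GFP+ Lin- c-Kit+ cells were sorted from the spleen 3 days after the first injection. Each group is a pool of 3 mice, so the library labelled Usp18+/f (oil) and the library labelled Usp18+/Δ (tamoxifen) are 1 library each, and the tamoxifen itself, the deletion and the library cannot be told apart. No difference between them has a replicate check, no test was run, and all intervals are 95% intervals of counting error only.

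The libraries held 63690481 UMIs (oil) and 65146263 UMIs (tamoxifen), and their kept cells had medians of 8886 and 8181 UMIs. Usp18 (ENSMUSG00000030107, chr6:121245906-121270917, mm10) went against the genotype label (log2 ratio of tamoxifen over oil 2.45, 2.02 to 2.91). Histone-high cells held 51 Usp18 UMIs in the library labelled oil, or 3.38 counts per 1000000 UMIs (CPM), and 295 in the library labelled tamoxifen, or 18.4 CPM. Usp18 is itself an interferon-stimulated gene and is in the interferon list used here. Whether the 3′ reads lie outside the deleted part of the gene is not given in the sources used here, and if they do, this level does not check the labels. The libraries are therefore named below by the treatment on their labels, and no direction between them is read as an effect of less Usp18. The libraries shared 15 barcode sequences, and over both libraries 7 histone-high cells carried a shared barcode.

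Replication-coupled histone genes lie in clusters, have almost no introns, and are transcribed together while DNA is copied, so that each new stretch of DNA can be packed. Their mRNAs usually end in a conserved stem-loop and not in a poly(A) tail. Slbp binds that stem-loop and steers processing, translation and decay, and the histone mRNA pool falls once replication ends. Histone variants such as H3f3a are made throughout the cell cycle from polyadenylated mRNA. Rrm2 is the regulatory subunit of ribonucleotide reductase, which makes deoxynucleotides, and Fbxo5 (EMI1) restrains the anaphase-promoting complex from S phase until mitosis. Since the 3′ libraries prime on poly(A), the captured share of each histone mRNA was not measured, and levels are compared here between cells and not between genes.

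The stem-loop is shown because it separates the histone genes by where their annotated transcripts end. The search looked for GGNNNTNNNNANNNCC with 6-base arms that pair exactly around a loop of 4 bases, on the transcript strand of GENCODE vM21. Of 67 clustered histone genes, 46 held it, against 1.27% of 58725 other protein-coding transcripts. The capitals mark the loop.
Hist1h1e: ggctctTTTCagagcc
Hist1h3c: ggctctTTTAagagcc
Hist1h4d: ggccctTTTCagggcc
Hist1h4i: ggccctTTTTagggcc
Hist2h2ac: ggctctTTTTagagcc
In Hist1h2ap it lay 3 bases before the annotated end. In Hist1h1e it lay 1153 bases, in Hist1h1c 840 bases and in Hist1h2ac 2010 bases before it, so that these gene models run on far beyond the stem-loop. The models of Hist1h1b and Hist1h1a hold no match in the annotated 743 and 741 bases.

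The promoters are shown because Hist1h1b and Hist1h1c both hold the motif called the H1 box and were distributed differently over the cells (below). The 150 bases before the RefSeq start (GRCm38.p6) were searched on both strands for the H1 box AAACACA, for CCAAT, for TATAAA, for TTTNNCGC (an E2F-like motif) and for TTTGAA (the core of the CHR element). Capitals mark the first 3 of these, and they do not overlap.
Hist1h1b: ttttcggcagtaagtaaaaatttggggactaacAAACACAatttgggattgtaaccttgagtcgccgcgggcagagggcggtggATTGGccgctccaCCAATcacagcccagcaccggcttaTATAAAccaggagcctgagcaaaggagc
Hist1h1c: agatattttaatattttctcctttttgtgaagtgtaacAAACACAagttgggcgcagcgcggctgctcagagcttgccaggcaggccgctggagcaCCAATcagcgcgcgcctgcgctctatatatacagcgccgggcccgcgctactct
The Hist1h1b window is chr13:21780626-21780775 on the minus strand and the Hist1h1c window is chr13:23738657-23738806 on the plus strand. The H1 box begins 117 and 112 bases before the start, Hist1h1d and Hist1h1e hold it too, the Hist1h1a window does not, and TATAAA was not among the letters of the Hist1h1c window. CCAAT was found for 6 of 6 H genes and 8 of 8 M genes with a promoter entry, for 2 of 6 E genes, for 47 of 58 other clustered histone genes, and for 25.3% of 27025 promoters. The H1 box was held by 7 of those 58 (3.50% of all promoters), TATAAA by 21 (8.08%), TTTNNCGC by 4 (2.79%) and TTTGAA by 17 (9.24%). TTTNNCGC was held by 4 of 6 E genes and 1 of 6 H genes.

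Histone-high cells made up nearly the same share of both libraries. They were 1446 of 6573 kept cells (22.0%, 95% Clopper-Pearson interval 21.0 to 23.0) in the library labelled oil and 1578 of 7345 (21.5%, 20.5 to 22.4) in the library labelled tamoxifen. The log2 ratio of these shares was -0.03 (score interval -0.13 to 0.06). The neighbouring groups differed more. Cells led by M were 27.6% and 22.4%, cells led by E 33.9% and 31.0%, and cells with all 3 scores below 0 were 16.5% and 25.1%. At an equal depth of 3000 UMIs per cell, with 153 and 296 shallower cells left out, the share of histone-high cells was 22.0% and 21.4%, and 81.7% of the deep enough histone-high cells met the rule again.

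**Figure D1:**
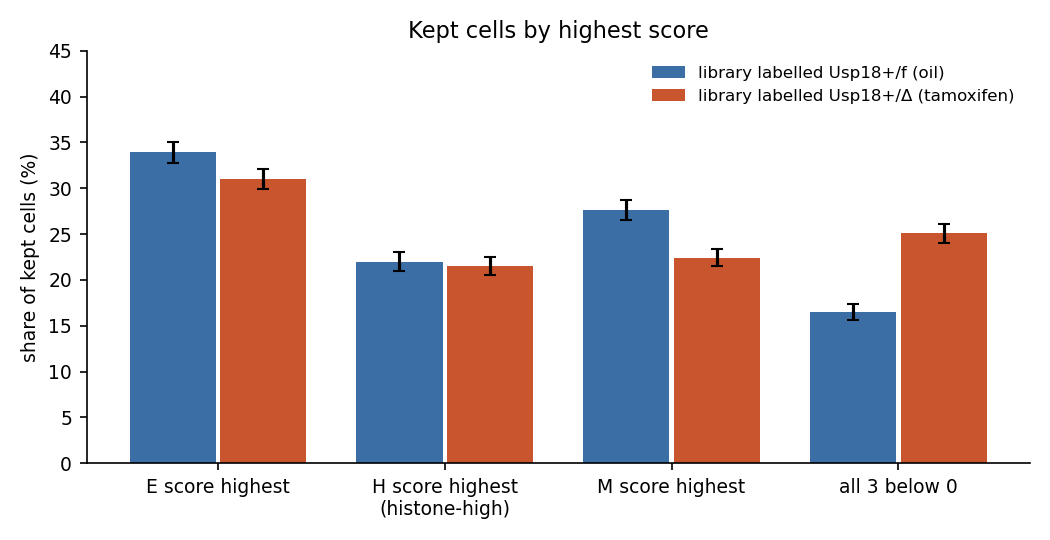
Share of kept cells (percent) by highest score in the library labelled oil (blue) and the library labelled tamoxifen (orange), with 95% Clopper-Pearson intervals. The bars for histone-high cells, 22.0% and 21.5%, have intervals that overlap, and those for cells with all scores below 0, 16.5% and 25.1%, do not.

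Histone-high cells were deep and had many genes. Their median depth was 10474 UMIs and 3267 genes (oil) and 9905 UMIs and 3174 genes (tamoxifen), between the E-led cells (8264 and 7946 UMIs) and the M-led cells (11832 and 11158 UMIs). The range from the 5th to the 95th percentile was 3996 to 16309 UMIs and 5085 to 15728 UMIs. The rule has no gap at its limits: 332 histone-high cells (11.0%) lay within 0.1 of a limit, and 370 other cells lay equally near outside it. Cells just inside had a median H score of 1.13 and 36 UMIs of clustered histones, and cells just outside 1.06 and 31 UMIs. The second highest score was E in 1572 histone-high cells and M in 1452.

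The genes that chose the cells are given as a description. Hist1h1b (ENSMUSG00000058773, chr13:21779883-21780625), which encodes linker histone H1.5, was at 1307 CPM (oil) and 1529 CPM (tamoxifen) in histone-high cells. It was at 139 and 149 CPM in E-led cells, 410 and 519 CPM in M-led cells, and 20.2 and 11.3 CPM in cells with all scores below 0. Hist1h1b was thus lower on both sides of the histone-high cells. Hist1h1a, another linker histone gene, was at 149 and 174 CPM in histone-high cells and between 34.2 and 37.1 CPM in E-led and M-led cells. Hist1h2ap was at 544 and 349 CPM and Hist1h2ae at 386 and 315 CPM. Both code for near-identical H2A proteins, and how reads that match several H2A genes were treated was not examined here. Both H2A genes had their second level in M-led cells, 256 and 152 CPM for Hist1h2ap and 185 and 147 CPM for Hist1h2ae. Rrm2 was at 181 and 197 CPM and had its second level in E-led cells (81.8 and 87.5 CPM), while Fbxo5 was at 157 and 150 CPM, with 42.9 and 41.1 CPM in E-led and 50.3 and 46.6 CPM in M-led cells.

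Detection is given as a description too, because the histone genes of score H, Hist1h1b among them, chose the cells and are counted in it. A histone-high cell held a median of 45 UMIs (oil) and 44 UMIs (tamoxifen) over all clustered histone genes, rule genes included. Every cell held at least 1, and the most were 163 and 165. M-led cells held medians of 24 and 22, E-led cells 5 and 4, and cells with all scores below 0 held 4 and 3. At 3000 UMIs per cell, Hist1h1b was found in 93.8% and 95.5% of histone-high cells (98.3% and 98.4% without thinning). In cells with all scores below 0 it was found in 5.64% and 2.81% (10.8% and 5.65% without thinning, at median depths of 5916 and 5352 UMIs), which includes any free RNA.

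**Figure D2:**
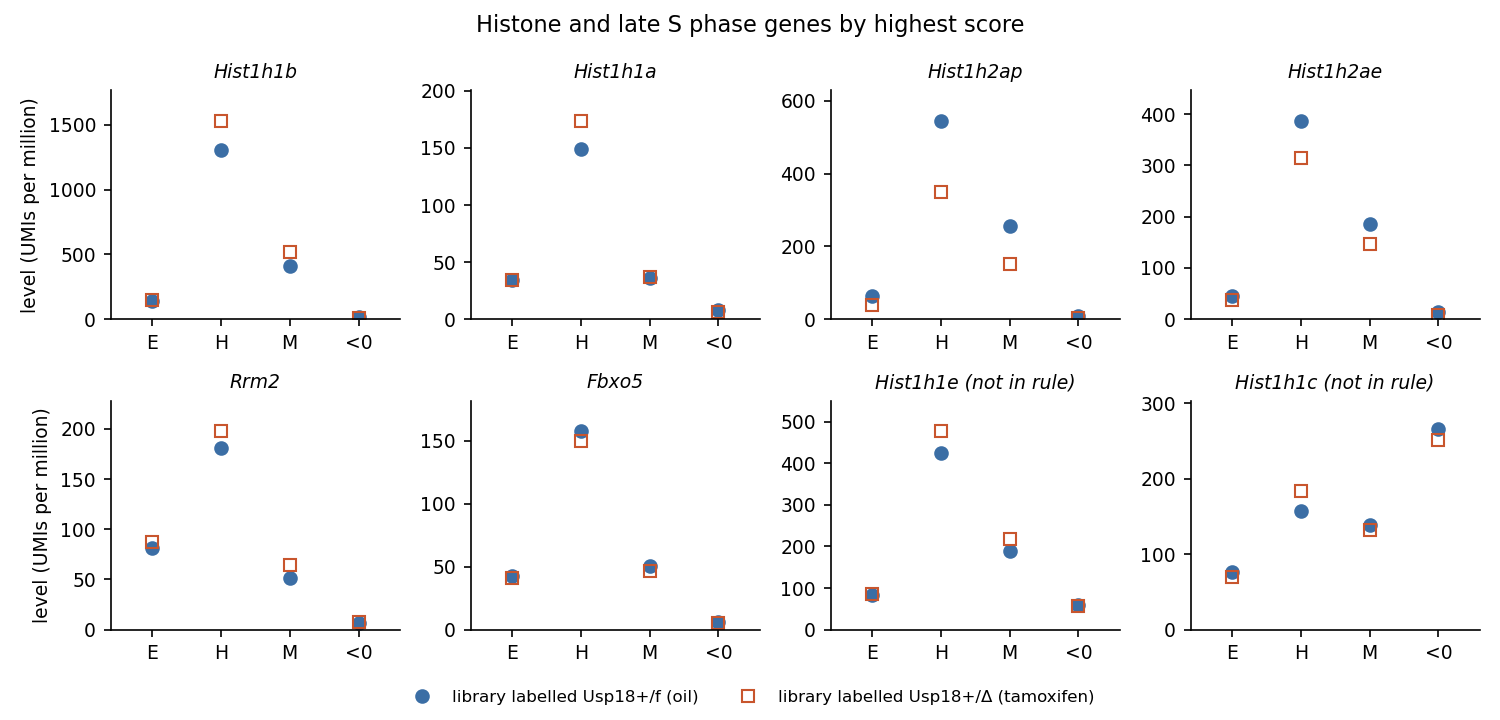
Level (CPM of summed UMIs) of the 6 genes of score H and of 2 linker histone genes outside the rule, by highest score (E, H, M, or all 3 below 0), in the library labelled oil (filled circles) and the library labelled tamoxifen (open squares). The H genes peak in histone-high cells because they chose them, and Hist1h1e has the same peak. Hist1h1c is highest, in CPM and not in UMIs per cell, in cells with all scores below 0.

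Most other clustered histone genes were higher in histone-high cells too. Outside the rule the files hold 63 of them, and 24 had a mean of at least 20 CPM in histone-high cells. Of these 24, 19 were at least 1.5-fold higher than in the other kept cells in both libraries and 0 were lower. Over all 6159 genes tested, with the 3 sets of rule genes left out, 2.99% (184 genes) were higher in this way and 1.1% (68 genes) were lower. These shares have a wider filter, 20 CPM in histone-high cells or in the other cells, under which Hist1h2bc also enters, and it was lower in both libraries. The median log2 ratio of the 24 was 1.07 (oil) and 1.45 (tamoxifen), beside -0.02 and -0.01 over all 5911 genes above the same level. These counts are not independent of the rule, which used 4 histone genes of the same cells. When the cells were chosen on Rrm2 and Fbxo5 alone in score H, the mean of both libraries' ratios had a median of 0.73 over the list, against 1.23 by the full rule. Of the 39 histone genes below 20 CPM, 31 were above the other cells in both libraries and 2 had no UMI.

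Linker histone genes differed among themselves. Hist1h1e (H1.4) was at 424 and 479 CPM in histone-high cells and at 129 and 132 CPM in the other cells, log2 ratios of 1.72 (1.67 to 1.77) and 1.86 (1.81 to 1.91). Hist1h1d (H1.3) was at 129 and 134 CPM, with ratios of 1.11 and 1.30. Hist1h1c (H1.2) was at 158 and 184 CPM in histone-high cells and 76.8 and 69.5 CPM in E-led cells. It was at 265 and 251 CPM in cells with all scores below 0, its highest level in CPM. Those cells were shallower, and in UMIs per cell Hist1h1c was not highest in them. Its mean was 1.60 (oil) and 1.39 (tamoxifen) UMIs per cell there, against 1.64 and 1.86 in histone-high cells. Hist1h2bc, a core histone gene just under the filter, was also highest in CPM in cells with all scores below 0 (85.3 and 68.7 CPM). Unlike Hist1h1c, it was lowest in CPM in histone-high cells (15.97 and 20.5 CPM). Hist1h2ac was also not concentrated in histone-high cells, with log2 ratios of 0.04 and 0.29 over the other cells.

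Core histones of all 4 kinds (H2A, H2B, H3 and H4) were higher in histone-high cells. Of the H2A genes outside the rule, 5 passed the filter with median ratios of 1.41 and 1.74, led by Hist2h2ac (133 and 139 CPM, ratios 1.69 and 1.87) and Hist1h2ab (87.9 and 65.4 CPM, ratios 1.65 and 1.80). The 7 H2B genes had medians of 1.03 and 1.45, 5 H3 genes 1.23 and 1.55, and 4 H4 genes 0.99 and 1.23. The 10 passing genes whose stem-loop lies within 100 bases of the annotated end had median ratios of 1.32 and 1.54, rule genes included, the 13 whose models run farther had 0.97 and 1.24, and the 5 with no stem-loop in the model had 1.41 and 1.74. Hist1h1a and Hist1h1b, which chose the cells, are in the last set, Hist1h2ae in the second and Hist1h2ap in the first, so no order is read from these medians. Summed over the 63 genes, histone-high cells had 2023 and 2120 CPM, M-led cells 1469 and 1418 CPM, E-led cells 587 and 541 CPM, and cells with all scores below 0 had 750 and 660 CPM.

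**Figure D3:**
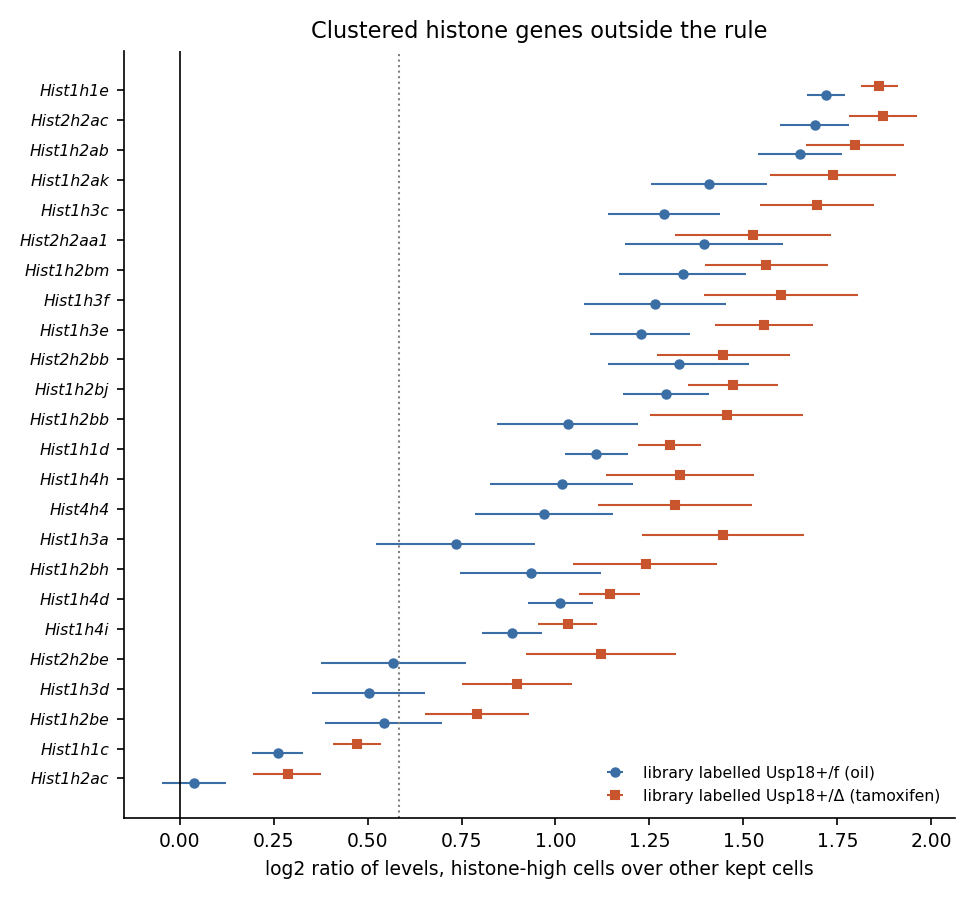
Log2 ratio of the level in histone-high cells over the other kept cells for the 24 clustered histone genes outside the rule with a mean of at least 20 CPM, in the library labelled oil (circles) and the library labelled tamoxifen (squares), with 95% counting intervals. The dotted line marks 1.5-fold, which 19 genes pass in both libraries, and Hist1h2ac and Hist1h1c lie lowest.

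Replication-independent histone genes were mixed. Of 11, 9 passed the filter, 2 were at least 1.5-fold higher in both libraries (2.99% of all genes were) and 1 was lower (1.1% of all genes were). The 2 were H3f3b, a gene for histone H3.3 (2222 and 2288 CPM, ratios 0.71 and 0.83), and H1f0, the linker histone H1.0 (377 and 380 CPM, ratios 0.74 and 0.85). H3f3a, which encodes the same H3.3 protein, had ratios of 0.05 and 0.01. Cenpa, the centromeric H3 variant, was lower, at 156 and 135 CPM with ratios of -1.05 and -0.96.

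Among genes that handle histone mRNA and new histones, some were higher. Of 13 genes 11 passed, and 4 were past 1.5-fold in both libraries (2.99% of all genes): Hat1, which acetylates new H4 (ratios 0.63 and 0.69), the chaperone gene Asf1b (0.84 and 1.02), Hirip3 (0.755 and 0.996) and Chaf1a, the large subunit of chromatin assembly factor 1 (0.64 and 0.81). Slbp was at 232 and 230 CPM in histone-high cells and at 235 and 218 CPM in E-led cells, but at 115 and 107 CPM in M-led cells. Its level thus separated histone-high cells from M-led cells and not from E-led cells. Npat, the coactivator of histone gene transcription, was near the other cells, with ratios of 0.05 and 0.26.

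Many genes of DNA replication were higher than in the other kept cells as well. Of 25 replication fork genes 24 passed, 15 were past 1.5-fold in both libraries and 0 were lower, with medians of 0.64 and 0.77. Over all genes tested the shares were 2.99% higher and 1.1% lower, for this list and for the origin, nucleotide, repair, chromatin and cohesion lists that follow. The filter of the lists was set in histone-high cells alone, unlike that of the shares, so genes such as Dscc1, Ticrr, Gins1, Fancd2 and Brca1, which were below 20 CPM in the other cells, passed only through the cells where they were high. The counts and medians of these lists, like those of the histone lists, are therefore a description. Clspn, the checkpoint mediator at the fork, stood at 127 and 143 CPM (ratios 1.04 and 1.20), and Dscc1, a clamp loader subunit, at 37.1 and 36.4 CPM (1.11 and 1.18). Fen1 and Lig1, which finish Okazaki fragments, had ratios of 0.90 and 1.03, and of 0.96 and 1.01. Pcna, the sliding clamp, was at 157 and 150 CPM in histone-high cells, 124 and 121 CPM in E-led cells, and 63.7 and 62.6 CPM in M-led cells.

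Origin licensing and initiation genes stood 14 to 0, with 18 of 20 passing and medians of 0.70 and 0.83. The leading genes act when origins fire: Cdc45 (ratios 1.24 and 1.39), Ticrr (1.27 and 1.23) and Mcm10 (1.15 and 1.24). The G1/S cyclin genes Ccne1 and Ccne2 were above the other cells (0.91 and 0.91, 0.86 and 0.81) but below E-led cells (-0.27 and -0.25, -0.13 and -0.21). Ccne1 was below the filter, at 15.4 and 18.4 CPM in histone-high cells. Nucleotide supply had 5 of 9 passing genes higher and 0 lower, led by thymidine kinase Tk1 (123 and 115 CPM, ratios 1.56 and 1.56) and thymidylate synthase Tyms (225 and 224 CPM, ratios 1.12 and 1.17). Samhd1, which breaks deoxynucleotides down, had ratios of -0.29 and -0.57.

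In the checkpoint and repair list 19 of 20 genes passed, 12 were past 1.5-fold and 0 were lower, with medians of 0.68 and 0.85. Brca1, which acts in homologous recombination, stood at 55.5 and 50.9 CPM (ratios 1.58 and 1.46). Chromatin copying had 3 of 8 genes higher, Dnmt1 (0.60 and 0.72), Uhrf1 (0.96 and 1.14) and Atad2 (1.16 and 1.21). Among 11 cohesion genes 3 were higher: Esco2, the acetyltransferase that locks cohesin on copied DNA (267 and 267 CPM, 1.46 and 1.63), Cdca5 (1.40 and 1.59) and Sgo1 (0.60 and 0.72).

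The 15 genes with the highest ratios outside the rule, in the library where each was nearer 1, included Mybl2, Hist1h1e, Brip1, Hist2h2ac, Hist1h2ab, Neil3, Tk1, Ncapg2, Brca1, Esco2, Pclaf, Hist1h2ak, Pbk and Cdca5. Mybl2, a transcription factor of the cell cycle, led with 60.8 and 66.9 CPM against 18.3 and 19.4 CPM elsewhere, ratios of 1.73 and 1.79. Mybl2, Brip1, Brca1, Hist1h2ak and Cdca5 were below 20 CPM in the other cells and entered only through histone-high cells. The 5 lowest were Csf2rb2, Cdkn3, Cpa3, Gm28187 and Neurl3, all but Cpa3 below 20 CPM in histone-high cells and entered only through the other cells. Csf2rb2, a beta chain of the interleukin 3 receptor, had ratios of -1.44 and -1.71, and Cpa3, a mast cell protease, -1.15 and -1.56. Cdkn3, a phosphatase that acts on cyclin-dependent kinases, had -1.51 and -1.39.

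Set against single classes, 232 genes were at least 1.5-fold higher than in E-led cells in both libraries and 35 lower, 3.79% and 0.571% of 6129 tested. Against M-led cells 112 were higher and 104 lower (1.83% and 1.7% of 6131), and against cells with all scores below 0 the counts were 1004 and 843 (15.5% and 13% of 6478). Against each of the 3 classes 41 genes were higher, 0.684% of the 5993 tested against all of them, and 6 of the 41 were clustered histones. Some of them, such as E2f7, Brca1 and Mybl2, entered only through histone-high cells. Besides histones, the 41 genes included Brca1, Brip1, Esco2, Tk1, Tyms, Mybl2, E2f7, E2f8 and Gmnn, whose product blocks relicensing of copied DNA.

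Genes of G2 and mitosis were mixed. Of 26 outside the rule, 6 were past 1.5-fold higher than in the other cells in both libraries (2.99% of all genes) and 1 was lower (1.1%), with medians of 0.15 and 0.29. Top2a, which untangles copied DNA, was at 622 and 636 CPM in histone-high cells, 647 and 688 CPM in M-led cells and 77.5 and 73.7 CPM in E-led cells. Mki67 followed it, at 798 and 785 CPM against 848 and 858 CPM in M-led cells. Ccna2, the S and G2 cyclin, was at 102 and 92.1 CPM, between E-led (29.6 and 30.8 CPM) and M-led cells (190 and 168 CPM). Ccnb2, a mitotic cyclin, was the gene that was lower, with ratios of -1.17 and -1.02. The classes were cut on scores E and M, so this order follows in part from the scores and is no check of the late S phase label, and DNA content was not measured. When score H was built from Rrm2 and Fbxo5 alone, the median of this list turned to -0.26.

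Histone-high cells varied among themselves in their other scores. Cells with E at least 0 and M below 0 numbered 303 (21.0%) and 351 (22.2%), cells with both at least 0 numbered 771 (53.3%) and 858 (54.4%), and cells with only M at least 0 numbered 305 (21.1%) and 302 (19.1%). The remaining 67 and 67 cells had both below 0. Across the first 3 bands, Pcna went from 192 and 186 CPM through 162 and 150 to 119 and 118 CPM, and Slbp from 259 and 266 through 248 and 240 to 177 and 169 CPM. Top2a went the other way, from 347 and 376 CPM through 683 and 694 to 788 and 800 CPM. These genes were outside the scores, yet they follow the genes that made the bands, so the order is a description.

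Histone genes differed in their order over the bands. Hist1h1b was at 1127 and 1334 CPM, then 1427 and 1639 CPM, then 1267 and 1519 CPM, highest in the band with both scores at least 0. Hist1h1a was highest in the first band, at 184 and 219 CPM, and was at 98.7 and 122 CPM in the third. Hist1h2ae had 324 and 267 CPM in the first band, 396 and 332 CPM in the second and 449 and 335 CPM in the third. Hist1h1a was therefore highest on the E side and Hist1h1b in the middle in both libraries, while Hist1h2ae was highest on the M side in the library labelled oil and nearly level between the second band and the third in the library labelled tamoxifen. Median depth was 10061 and 9390 UMIs, 10810 and 10147 UMIs, and 10654 and 10245 UMIs. The band with neither score at least 0 was shallow, at 6343 and 4479 UMIs, with 11 and 7 histone UMIs per cell.

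**Figure D4:**
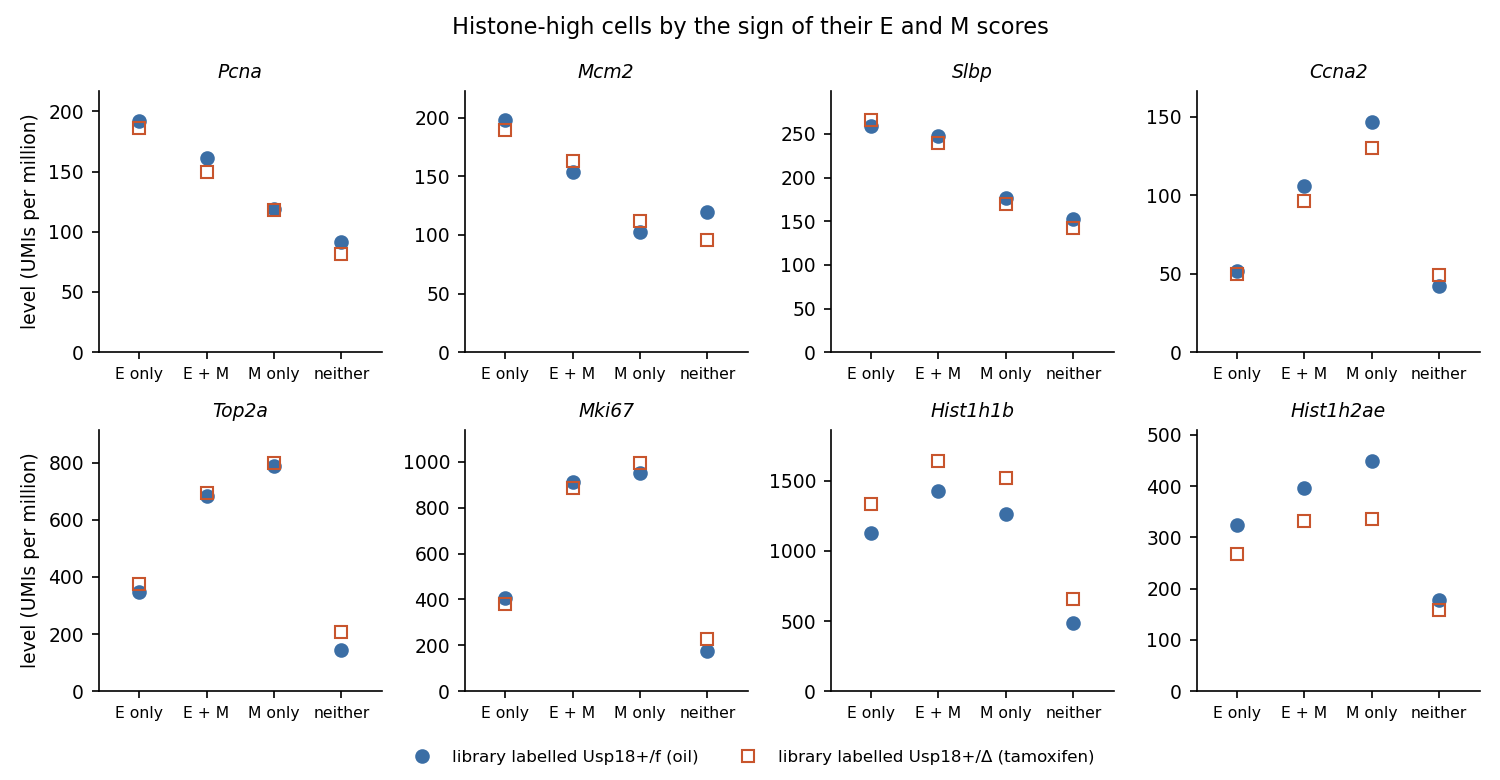
Level (CPM of summed UMIs) of 8 genes in histone-high cells split by the sign of their E and M scores, in the library labelled oil (filled circles) and the library labelled tamoxifen (open squares). Pcna and Slbp step down and Top2a and Mki67 step up from cells with only E at least 0 to cells with only M at least 0, in both libraries.

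Between the libraries, most genes of histone-high cells were nearly level. Over the 5931 genes that reached the filter of 20 CPM in histone-high cells, 0.287% (17 genes) were at least 1.5-fold higher in the library labelled tamoxifen and 0.202% (12 genes) were at least 1.5-fold lower. The median log2 ratio was 0.01, and 95.03% of genes lay within 0.25 of 0. All of the replication, licensing, nucleotide, repair and cohesion genes above the filter stayed under 1.5-fold, and their list medians lay between -0.01 and 0.02. Brca2 was the farthest in the checkpoint and repair list, at 37.0 and 50.6 CPM (0.45, 0.29 to 0.61), and Rpa3, a subunit of the single-strand binding complex, in the fork list, at 113 and 85.0 CPM (-0.41, -0.51 to -0.31).

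Among clustered histone genes outside the rule, 3 of 3 linker genes above the filter were higher in the library labelled tamoxifen. Of 5 H2A genes 2 were higher and 3 lower. The intervals of Hist1h1d (-0.03 to 0.15), Hist2h2ac (-0.02 to 0.16), Hist2h2aa1 (-0.16 to 0.27) and Hist1h2ak (-0.27 to 0.05) covered both signs. Those of Hist1h1e, Hist1h1c, Hist1h2ac and Hist1h2ab did not. The median ratio of all genes was 0.01, so either sign is common and these counts are a description. Hist1h2ab, an H2A gene, was at 87.9 CPM (oil) and 65.4 CPM (tamoxifen), a ratio of -0.42 (-0.54 to -0.31), and Hist1h1e had 0.18 (0.13 to 0.22). The genes of score H chose the cells through 1 summed score, so their own differences are a description: Hist1h1b 0.23, Hist1h1a 0.22, Hist1h2ae -0.29 and Hist1h2ap -0.64 (-0.69 to -0.59). With the rule genes counted in, 5 of 5 linker genes were higher and 5 of 7 H2A genes lower. Each of 3 other scalings gave these counts but reused the same cells. The 4 histone genes of score H are among them and chose the cells through a summed score, so these counts are no support. With cells chosen on Rrm2 and Fbxo5 alone, the counts were 4 of 5 and 5 of 7. In the other kept cells the core histone genes, rule genes included, were lower (medians of -0.44 for H2A, -0.28 for H2B, -0.30 for H3 and -0.22 for H4), while in histone-high cells the medians were -0.15, 0.05, 0.14 and 0.01. Histone-high cells were cut on histone level in both libraries. The other kept cells of the library labelled tamoxifen also held more cells with all scores below 0. The contrast is therefore a description. No clustered histone gene outside the rule that passed the filter was past 1.5-fold, and Hist1h2ap, a rule gene, was.

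Interferon-stimulated genes were higher in the library labelled tamoxifen. Of 40 listed, 39 are in the files and 16 passed the filter. All 16 had ratios above 0, 9 were past 1.5-fold (against the 0.287% of all genes), and 0 were lower, with a median of 0.73. Isg15, Oas3, Samd9l and Trim30a were below 20 CPM in the library labelled oil and passed only through the library where they were high, so these counts and the median are a description. Isg15, a ubiquitin-like protein that Usp18 removes from its targets, was at 14.9 CPM (oil) and 74.8 CPM (tamoxifen), a ratio of 2.33 (2.12 to 2.54). Rnf213 was at 46.8 and 101 CPM (1.11, 0.98 to 1.24), Oas3, a sensor of double-stranded RNA, at 14.2 and 36.4 CPM (1.36, 1.13 to 1.59), and Uba7, which activates Isg15, at 65.1 and 66.0 CPM (0.02, -0.11 to 0.15). In the library labelled tamoxifen the summed level was lower in histone-high cells than in each other class, and in the library labelled oil it was level with M-led cells (832 CPM): the list summed to 832 and 1513 CPM in them, against 922 and 2001 CPM in the other kept cells and 1272 and 3041 CPM in cells with all scores below 0.

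The cells were also compared at equal depth. Thinned to 3000 UMIs per cell, the log2 ratio of Isg15 was 3.02, above its interval at full depth. At that depth 3.25% (2.39 to 4.31) of histone-high cells of the library labelled oil and 13.1% (11.4 to 14.9) of the library labelled tamoxifen had an Isg15 UMI. In cells with all scores below 0 the shares were 10.3% and 28.2%. Cells with more interferon list UMIs than 99% of the oil library's cells were 0.353% and 5.34% of histone-high cells. They were 0.455% and 8.55% of E-led cells, 0.394% and 7.82% of M-led cells, and 2.62% and 29.3% of cells with all scores below 0. The median of the differences in log2 ratio between histone-high and other cells was -0.20 over the 16 genes, and the other kept cells of the library labelled tamoxifen also held more cells with all scores below 0, so that composition moves with this comparison; its part was not tested.

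Cdkn1a, the p53 target that encodes the CDK inhibitor p21, was at 22.5 CPM (oil) and 57.5 CPM (tamoxifen) in histone-high cells, a ratio of 1.36 (1.18 to 1.54). In cells with all scores below 0 it was at 22.5 and 122 CPM. Its ratio was 1.58 in thinned cells, and 1.55 where H had to lead by 0.25. At 3000 UMIs, 6.01% (4.83 to 7.37) and 14.6% (12.8 to 16.4) of histone-high cells had a Cdkn1a UMI. Of 20 p53 and DNA damage genes 6 passed the filter, all above 0 with a median of 0.31, but only Cdkn1a was past 1.5-fold (0.287% of all genes were higher). Ccng1 was at 57.7 and 84.1 CPM (0.54, 0.42 to 0.67), Mdm2, which degrades p53, at 27.6 and 35.1 CPM (0.35, 0.16 to 0.54) and Bax at 221 and 259 CPM (0.23, 0.17 to 0.30). Of 14 pyroptosis genes 4 passed, with a median of -0.07, and 0 were past 1.5-fold, which at shares of 0.287% higher and 0.202% lower over all genes is no result about the list.

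The 10 genes farthest up were Isg15, Rgs1, Oas3, Cdkn1a, Cyp11a1, Rnf213, Ifi27l2a, Parp9, Samd9l and Sp100, of which Rgs1, like Isg15, Oas3 and Samd9l, passed the filter only through the library where it was high. Cyp11a1, the first enzyme of steroid synthesis, was at 124 and 276 CPM (1.15, 1.08 to 1.23) and was detected in 39.6% and 68.4% of histone-high cells. Rgs1, a regulator of G protein signaling, was at 9.41 and 35.9 CPM (1.93, 1.67 to 2.21), but the 10 cells richest in it held 56.3% of its UMIs in the library labelled tamoxifen, 1 of them 72 UMIs. Without the 10 richest cells of each library the ratio was 1.11 (0.78 to 1.44).

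The 10 genes farthest down were Hspa1a, Hspa1b, Mcpt1, Mcpt2, Serpinb1a, Fosb, Bmp4, Slc39a1, Hba-a1 and Hist1h2ap. Of these, Hspa1a, Mcpt2, Serpinb1a, Fosb, Bmp4 and Slc39a1 were below 20 CPM in the library labelled tamoxifen and passed only through the library where they were high. Hspa1b, an inducible heat shock protein, was at 173 and 39.3 CPM (-2.14, -2.27 to -2.01), and Hspa1a was at 41.5 and 4.50 CPM (-3.21, -3.58 to -2.85). Of 11 heat shock and immediate early genes 7 passed and 3 were past 1.5-fold lower (0.202% of all genes were), the third being Fosb. Such genes respond to handling, and the time from spleen to capture is not given in the sources used here. Mcpt1 and Mcpt2, mast cell proteases, were at 105 and 33.5 CPM and at 55.5 and 18.8 CPM. Their UMIs came from 19.6% and 10.7% of cells for Mcpt1, with 36.1% and 41.8% in the 10 richest cells.

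**Figure D5:**
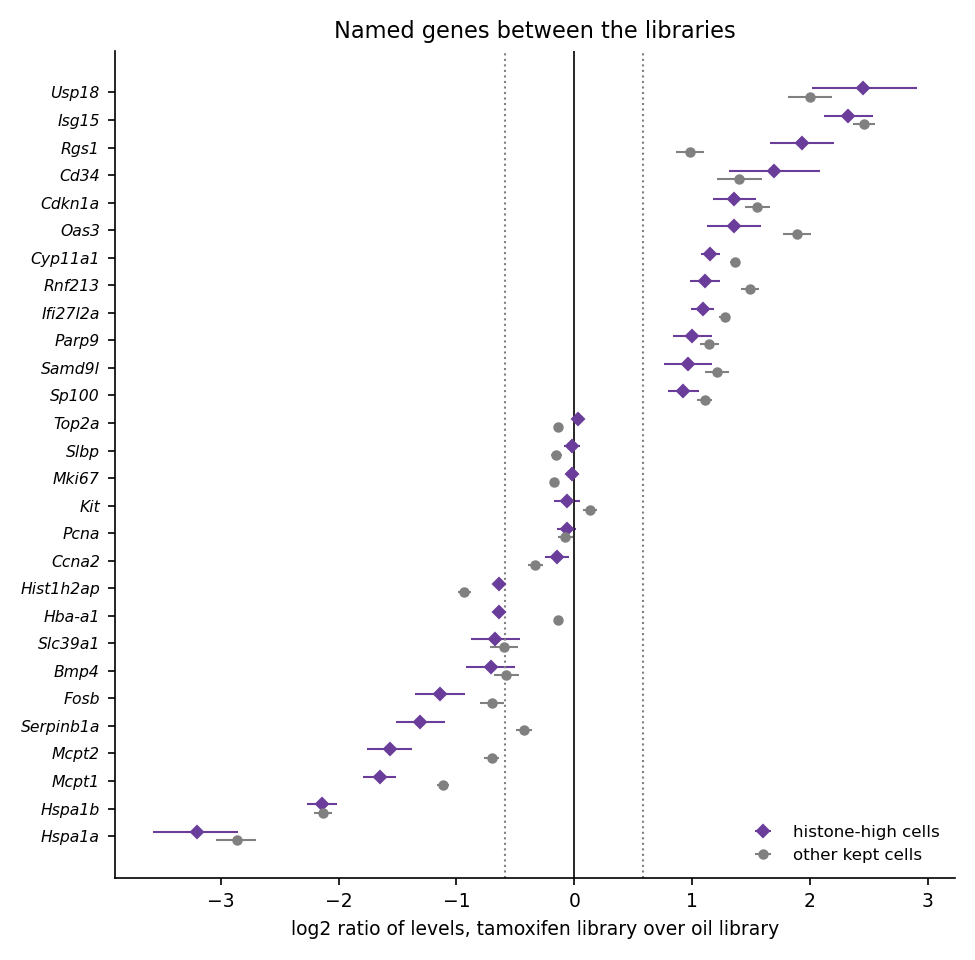
Log2 ratio of the level in the library labelled tamoxifen over the library labelled oil for the named genes, in histone-high cells (diamonds) and the other kept cells (circles), with 95% counting intervals; dotted lines mark 1.5-fold. Interferon-stimulated genes, Cdkn1a and Cyp11a1 lie to the right in both sets of cells, Hspa1a and Hspa1b to the left, and Slbp, Top2a, Mki67 and Pcna near 0.

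The 5 genes whose ratio differed most between histone-high and other cells, among those with a mean of 20 CPM in both, were Rgs1, Serpinb1a, Mcpt2, Hbb-bt and Mxd4. Rgs1 differed by 0.95 (0.66 to 1.24), but its value in histone-high cells rests in part on a few cells. Its ratio there was 1.11 without the 10 richest cells of each library. In the other cells it was 0.99, with no cells left out, so these values are not alike. Serpinb1a differed by -0.88 (-1.10 to -0.67), Mcpt2 by -0.86 (-1.06 to -0.66), Hbb-bt by -0.70 (-0.75 to -0.64) and Mxd4, an antagonist of Myc, by -0.58 (-0.81 to -0.36). The 10 richest histone-high cells of each library held 44.3% and 40.9% of Serpinb1a UMIs. For Mcpt2 they held 30.4% and 30.7%, and for Hbb-bt 22.3% and 25.8%. The intervals treat UMIs as independent and do not cover this. Mast and globin transcripts were highest in cells with all scores below 0 (Mcpt1 823 and 293 CPM, Hba-a1 2692 and 2404 CPM), whose share differed between the libraries.

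Histone-high cells carried Kit, the gene of the sorted marker c-Kit, at 86.0 and 82.5 CPM. Of genes that were not sorted on, Runx1, the mouse counterpart of AML1, was at 550 and 528 CPM. The list of 6 stem and progenitor genes (Kit, Cd34, Ly6a, Meis1, Hoxa9 and Runx1) summed to 641 and 629 CPM, almost all of it Runx1 and Kit. Of the 6, 2 passed the filter and 2 had no UMI in histone-high cells. Cd34 was at 4.90 and 15.9 CPM, a ratio of 1.70 (1.32 to 2.09), below the filter. Lineage markers were near 0: 9 granulocyte genes summed to 1.46 and 1.75 CPM with no UMI of Elane, Ngp, Mpo or Ly6g, 7 macrophage genes to 4.77 and 6.001 CPM with none of Adgre1, and 5 B cell genes to 0.13 and 0.44 CPM with none of Ighm or Ms4a1. The 6 T and NK cell genes summed to 7.16 and 13.9 CPM, almost all of it Nkg7, with none of Cd3d, Cd3e, Cd3g or Ncr1. The 4 megakaryocyte genes had 2.58 and 2.25 CPM and 3 endothelial genes 0.33 and 0.25 CPM. Markers of mast cells and erythroid cells were present, 9 genes summing to 1302 and 1242 CPM and 10 to 6494 and 5617 CPM, but at lower sums than in cells with all scores below 0 (4014 and 3565 CPM, 13701 and 14652 CPM).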

How the data were processed

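GFP+ Lin- c-Kit+ splenocytes of 2 groups were measured on the 10x Genomics Chromium 3′ V3 system, 1 library per group. The authors deposited raw UMI counts per gene and barcode, made with Cell Ranger 3.0.2 and mm10 per the submitters' processing notes. Their later Seurat steps were not used.

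UMIs were summed over cells of a class and library and scaled to CPM (numpy 2.4.6, scipy 1.17.1). Genes needed a mean of 20 CPM, and 1.5-fold was the size rule. Intervals are exact conditional (ratios), Clopper-Pearson (shares) and score (share ratios), all at 95% and for counting error only; a count of 0 allows 3 UMIs. Doublets were not removed in the reported values (an alternative used Scrublet in scanpy 1.11.5). The calculations were checked on simulated summed counts, drawn from a shared profile with counting error alone. The simulation had no variation between cells or libraries and no selection of cells on a score. It checks the arithmetic and gives no rate of false calls for these data. Between libraries over 5976 genes, 100% of the 2-fold and 48% of the 1.5-fold changes passed the 1.5-fold rule, and 0% of unchanged genes did; for histone-high against other cells over 6024 genes the values were 100%, 50% and 0%. Coordinates are from GENCODE vM21 (30934 of 31053 genes matched).

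The cells, lists and named-gene rule were chosen with earlier results of these data known. Named genes were the rule genes, 10 fixed genes, the 15 highest and 5 lowest ratios against other cells, the 10 largest differences in each direction between libraries, the 5 largest differences in that ratio, and up to 4 examples per list. Alternatives varied the cell filter, doublets, the rule, depth, averaging, scaling, the low-count filter and the fold. Some genes are not reported here.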

Additional observations from a re-analysis of the deposited data

How the results depend on the processing

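Over 18 alternatives, 145 of 176 recomputed values stayed within 1.5 times (counts) or within the counting interval of the reported value, 30 moved and 1 reversed. The share ratio moved under none of its 10, from -0.08 to 0.05. The 29 genes past 1.5-fold between libraries became 51 at 3000 UMIs, 106 at a filter of 5 CPM, 12 at 50 CPM, 1828 with no filter beyond 1 UMI and 14 at 2-fold. The 252 genes past 1.5-fold against other cells became 418, 121, 1247 and 60 at 5 CPM, 50 CPM, no filter and 2-fold, and 138 with H from Rrm2 and Fbxo5. With H from these 2 genes the histone list moved from 1.23 to 0.73, the fork list from 0.71 to 0.60 and the p53 list from 0.31 to 0.51, and the G2 and mitosis list reversed from 0.22 to -0.26. Thinned cells gave 1.51, 0.79 and 0.47 for the histone, fork and G2 lists, and means of per-cell CPM gave 1.51, 0.82 and 0.54. A margin of 0.25 gave 1.08 (histone) and 0.13 (G2), H from the 4 histone genes 1.34 and 0.28, and 2 to 7% mitochondrial UMIs 0.16 (G2). The interferon median moved from 0.73 to 0.87 on totals without histone, mitochondrial, ribosomal and haemoglobin genes, 1.03 at 5 CPM and 1.06 with no filter. Fewer genes tested explains the counts at higher filters by construction; for the other changes the cause was not tested. Leaving out the shared barcodes and filtering on all kept cells were chosen after seeing the data. The first moved none of these values. The second was run for the comparison with other cells alone, where it took the 252 genes to 193 and moved none of the 3 list medians. Isg15 moved to 3.02 in thinned cells, and Cdkn1a to 1.58 in thinned cells and 1.55 at the margin of 0.25. No paired analysis was possible because oil and tamoxifen have a single library apiece and nothing was tested, and for that reason no replicate could be left out.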

Other observations

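Barcodes outside the mitochondrial limits were scored with the mean and SD of the kept cells. Below 2% mitochondrial UMIs, 88 of 313 barcodes (28.1%, 23.2 to 33.4) of the library labelled oil and 17 of 61 (27.9%, 17.1 to 40.8) of the library labelled tamoxifen met the rule, at median depths of 1068 and 1236 UMIs. Above 10% they were 28 of 161 (17.4%, 11.9 to 24.1) and 43 of 242 (17.8%, 13.2 to 23.2).

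Cells chosen with score H built from Rrm2 and Fbxo5 alone numbered 3027, and 1924 of them were histone-high cells by the full rule, 63.6% of either set.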
